A study of Mus musculus with 18 samples.

Results

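The alpha-actin genes of the heart and the smooth muscle genes that the fetal myocardium also expresses were followed as 6 genes. These were Actc1, Acta1 and Acta2, the cardiac, skeletal and smooth muscle alpha-actins, Tagln and Tagln2, the transgelins, and Cnn1, calponin 1. They were chosen by name, and all 6 of 6 were found by Ensembl identifier among the 12048 genes measured. The transcripts came from heart cardiomyocytes of Mlc2vcre:R26REYFP mice. The ventricular myosin light chain gene Mlc2v drives Cre there and so turns on a yellow fluorescent protein, and every group carried both alleles. Cells were sorted into a mononucleated and a binucleated class at E18.5, at P7 and in the adult, which gave 6 groups of 3 libraries and 18 libraries in all. The adult age is given in the labels without a number of weeks, and no treatment is given. The sources used here do not give how the number of nuclei was read in the sort, or whether animals were pooled.

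Actin is the subunit of the thin filament of the sarcomere and of the cytoskeleton, and mammals carry a separate gene for each muscle and non-muscle isoform. Cardiomyocytes of the fetus make skeletal and smooth muscle alpha-actin beside the cardiac isoform, and these genes are widely used as marks of an immature or stressed heart muscle cell. Transgelins and calponins are small proteins that bind actin filaments; Tagln and Cnn1 are classical markers of differentiated smooth muscle, while Tagln2 is made in many non-muscle cells. Many of these genes are bound by the factor Srf at a short DNA element with an A and T rich core called the CArG box, together with the cofactor myocardin (Myocd) or the actin-sensing cofactors Mrtfa and Mrtfb.

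The promoter windows of the alpha-actins are printed here because Acta1 and Acta2 took opposite courses with age in these cells while Actc1 held the highest level. A window of 250 bases before the transcript start was read from RefSeq for 5 of the 6 genes (build GRCm38.p6; each given as the strand of the gene, 5′ to 3′), and Tagln had no entry. Capitals mark each CArG box, that is CC, 6 bases of A or T, and GG, exact or with 1 mismatch among those 6 bases. A mismatch in the CC or GG was not searched, here or in the counts below. The pattern is its own reverse complement, so both strands are covered. The windows lie at chr2:114052876-114053125 for Actc1, chr8:123894776-123895025 for Acta1 and chr19:34255374-34255623 for Acta2, each on the minus strand, and at chr9:22099003-22099252 on the plus strand for Cnn1.
Actc1: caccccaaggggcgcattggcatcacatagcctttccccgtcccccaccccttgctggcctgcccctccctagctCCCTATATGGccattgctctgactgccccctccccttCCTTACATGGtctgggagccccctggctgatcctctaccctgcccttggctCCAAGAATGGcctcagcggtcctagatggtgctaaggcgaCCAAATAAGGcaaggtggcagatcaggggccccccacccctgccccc
Acta1: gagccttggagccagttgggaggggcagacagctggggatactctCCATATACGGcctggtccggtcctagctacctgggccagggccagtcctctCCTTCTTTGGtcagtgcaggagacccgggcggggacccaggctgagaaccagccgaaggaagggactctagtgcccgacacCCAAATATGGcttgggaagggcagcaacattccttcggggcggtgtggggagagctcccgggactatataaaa
Acta2: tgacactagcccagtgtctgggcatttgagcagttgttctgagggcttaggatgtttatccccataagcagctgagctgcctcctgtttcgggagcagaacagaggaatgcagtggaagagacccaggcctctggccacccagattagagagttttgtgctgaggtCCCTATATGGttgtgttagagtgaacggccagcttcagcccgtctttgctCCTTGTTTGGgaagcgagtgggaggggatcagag
Cnn1: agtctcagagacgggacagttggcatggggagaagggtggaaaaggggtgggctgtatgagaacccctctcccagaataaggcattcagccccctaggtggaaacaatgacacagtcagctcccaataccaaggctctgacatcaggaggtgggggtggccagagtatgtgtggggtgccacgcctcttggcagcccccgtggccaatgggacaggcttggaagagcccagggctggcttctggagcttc

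Actc1 and Acta1 each held 1 exact CArG box, CCAAATAAGG in Actc1 from base −47 to −38 before the start and CCAAATATGG in Acta1 from −73 to −64. Actc1 had 3 further matches with 1 mismatch and Acta1 had 2. Acta2 held no exact match and 2 with 1 mismatch, CCCTATATGG from −84 to −75 and CCTTGTTTGG from −34 to −25. The Cnn1 and Tagln2 windows held neither kind. Among all 32851 RefSeq promoter windows of the same length, 482 (1.47%) held an exact match and 2823 (8.59%) an exact match or one with 1 mismatch. The gene that rose with age and the one that fell thus both carry matches in these bases. A match is a description of letters and says nothing of binding in these cells.

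Counts recovered from the deposited log2 values summed to 14833334 to 22690952 per library. They are given below as normalized counts, that is, counts brought to a common library size with the authors' own library factors. Labelled cell identity was checked with 10 cardiomyocyte markers, all of them present in every group, whose summed normalized counts ran from 516821 to 1093036 per library. One library stood apart. Binucleated replicate 1 at E18.5 correlated with the other two libraries of its group at 0.884 and 0.896 across genes, against 0.954 to 0.983 for replicate pairs that did not include it. Values that rest on it are given with and without it.

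**Figure D1:**
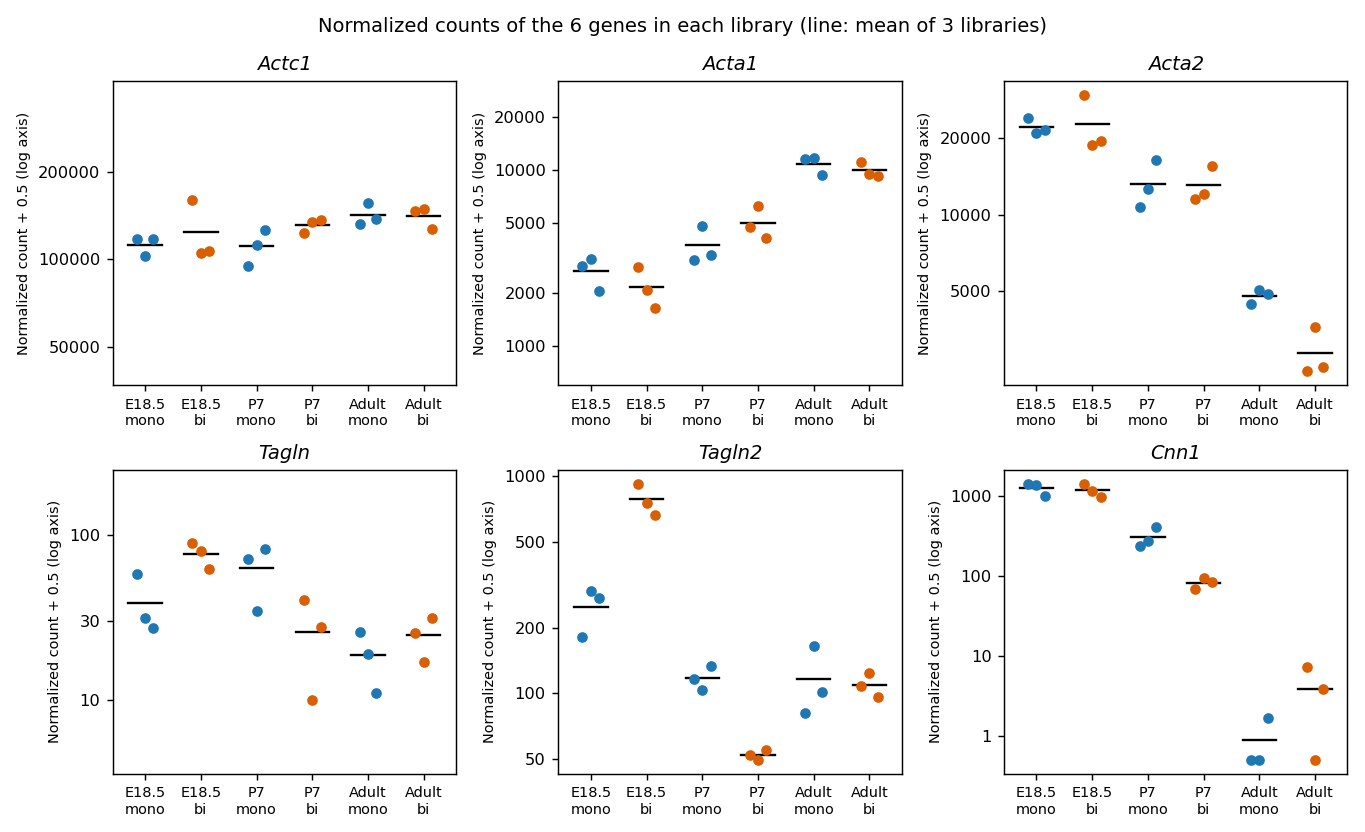
Normalized count plus 0.5 on a log axis for each of the 6 genes in each of the 18 libraries, with mononucleated groups in blue, binucleated groups in orange and a black line at the mean of 3 libraries. Acta1 climbs from a mean of 2665 at E18.5 to 10905 in adult mononucleated cells while Acta2 drops from 22137 to 4797, and Cnn1 falls from 1249 to 0.392.

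Actc1, the cardiac alpha-actin of the adult sarcomere (ENSMUSG00000068614), had the highest level of the 6 genes in all 18 libraries. Its normalized counts were 117379, 102456 and 117264 in mononucleated and 159365, 105332 and 107131 in binucleated cells at E18.5. At P7 they were 95118, 112294 and 125810 in mononucleated and 122890, 133912 and 136792 in binucleated cells. Adult values were 132436, 155763 and 137100 in mononucleated and 146229, 149410 and 126975 in binucleated cells. The group means lay between 111074 ± 15382 (SD, n = 3) and 141766 ± 12344, and each group overlapped its neighbour in the order of levels. The high value at E18.5 was that of the library that stood apart.

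No contrast of Actc1 passed the limma test. The largest value on the log2 scale was 0.36 ± 0.16 (SE) for adult against P7 in mononucleated cells (limma adjusted p = 0.0825). Adult against E18.5 gave 0.33 in mononucleated cells (limma adjusted p = 0.0859, 95% interval −0.00 to 0.67) and 0.21 in binucleated cells (limma adjusted p = 0.273, interval −0.13 to 0.54). These 3 contrasts, and P7 against E18.5 in binucleated cells at 0.30 (limma adjusted p = 0.0484), passed without binucleated replicate 1 of E18.5, with limma adjusted p = 0.00891, 0.0107 and 0.00695 for the first 3, and all 4 passed with array weights (0.0159 or less). Scaling to library totals instead turned both adult contrasts against E18.5 below 0, to −0.06 and −0.20, so the data fix no direction for Actc1 with age. Binucleated against mononucleated cells gave 0.12, 0.25 and −0.01 at the 3 ages in turn, with intervals of −0.22 to 0.45, −0.09 to 0.58 and −0.34 to 0.33.

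Acta1, the skeletal muscle alpha-actin (ENSMUSG00000031972), rose with age in both classes. At E18.5 its normalized counts were 2851, 3099 and 2044 in mononucleated and 2795, 2062 and 1641 in binucleated cells. At P7 they were 3088, 4795 and 3280 in mononucleated and 4736, 6251 and 4084 in binucleated cells. In the adult they reached 11625, 11689 and 9401 in mononucleated and 11194, 9546 and 9308 in binucleated cells. All 6 adult libraries lay above all 12 younger ones, and the nuclear classes overlapped at each age. From E18.5 to the adult the rise was 4.14-fold in mononucleated (2.05 ± 0.22 SE on the log2 scale, limma adjusted p = 8.39e-07) and 4.72-fold in binucleated cells (2.24 ± 0.22, limma adjusted p = 2.48e-07).

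The timing of the Acta1 rise was described in each class by its own steps. In binucleated cells Acta1 rose 2.34-fold from E18.5 to P7 (limma adjusted p = 0.000459) and 2.02-fold from P7 to the adult (limma adjusted p = 0.00166). In mononucleated cells the first step was 1.39-fold and did not pass (limma adjusted p = 0.153, or 0.00278 with array weights), and the second was 2.97-fold (limma adjusted p = 2.62e-05). The difference between the classes in the first step was not shown, at 0.75 ± 0.31 on the log2 scale (interaction, limma adjusted p = 0.275). Binucleated against mononucleated cells gave log2 fold changes of −0.31, 0.44 and −0.12 at the 3 ages, with intervals of −0.78 to 0.16, −0.03 to 0.90 and −0.59 to 0.35.

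Acta2, the smooth muscle alpha-actin (ENSMUSG00000035783), took the opposite course. Its normalized counts at E18.5 were 23918, 21011 and 21482 in mononucleated and 29543, 18811 and 19471 in binucleated cells. P7 libraries held 10669, 12559 and 16422 in mononucleated and 11553, 12106 and 15551 in binucleated cells. Adult libraries held 4469, 5042 and 4880 in mononucleated and 2427, 3627 and 2530 in binucleated cells. The 3 ages did not overlap, and the classes coincided at E18.5 and at P7. Acta2 fell 4.61-fold from E18.5 to the adult in mononucleated (−2.21 ± 0.20 SE on the log2 scale, limma adjusted p = 9.47e-08) and 7.86-fold in binucleated cells (−2.97 ± 0.20, limma adjusted p = 2.16e-09). In these sorted bulk samples, fewer cells that make a transcript and less of it per cell cannot be told apart.

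Both steps of the Acta2 fall passed the test in both classes. From E18.5 to P7 it fell 1.7-fold in mononucleated cells (limma adjusted p = 0.0115, or 0.0646 if P7 mononucleated replicate 1 was left out). The same step was 1.71-fold in binucleated cells (limma adjusted p = 0.00625, and 0.063 in a fit of those 2 groups alone). From P7 to the adult it fell 2.71-fold in mononucleated (limma adjusted p = 2.04e-05) and 4.6-fold in binucleated cells (limma adjusted p = 2.63e-07). Summed levels of smooth muscle and pericyte markers, of which 7 of 12 listed genes were measured, were not lower at the later ages. They were 3819 to 8579 normalized counts per library at E18.5, 10232 to 14813 at P7 and 14582 to 22288 in the adult. The listed markers Myh11, Lmod1, Actg2, Itga8 and Kcnmb1 were not among the measured genes, so these sums leave them out. In that list Abcc9 and Smtn, which working heart muscle also expresses, held most of the counts, and Pdgfrb, a pericyte receptor, had 0 counts in the mononucleated group at E18.5. Cspg4, the pericyte proteoglycan NG2, fell as Acta2 did, from 5220 recovered counts at E18.5 to 591 in the adult in mononucleated cells (−2.66 ± 0.29 SE on the log2 scale, limma adjusted p = 9.36e-07) and from 4446 to 397 in binucleated cells (−2.88 ± 0.29, limma adjusted p = 3.05e-07). It was the only gene of the list that passed and was lower in the adult. Of the 7 measured genes 4 were higher in adult than in E18.5 mononucleated cells and 3 in binucleated cells. In these contrasts 53.8% and 57.7% of all genes passed. From E18.5 to P7 in binucleated cells 2 were higher and 4 lower, with a median of −2.58 on the log2 scale, where 36% of all genes passed. The same step in mononucleated cells had 2 higher and 0 lower, with a median of 0.64, where 2231 of 12048 genes passed. The part of these markers in the Acta2 values was not tested.

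In the adult the binucleated cells held less Acta2 than the mononucleated ones, 2861 ± 665 against 4797 ± 296 normalized counts (SD, n = 3 each), with no overlap between the groups. The difference was 1.7-fold (log2 fold change −0.77 ± 0.20 SE, interval −1.18 to −0.35) and did not pass over all genes (limma adjusted p = 0.317). With array weights, which count noisy libraries less, the limma adjusted p was 0.0347, and over the other alternatives it stayed above the threshold. At E18.5 and P7 the class difference was 0.00 and −0.01. The change of the class difference from P7 to the adult was −0.76 ± 0.28 (interaction, limma adjusted p = 0.623).

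Per kilobase of exon, Actc1 transcripts outnumbered those of the other alpha-actins in every library. Of the counts per kilobase of the 3 genes together, Acta2 made up 12.4% ± 0.617 (SD, n = 3) in mononucleated and 11.6% ± 0.203 in binucleated cells at E18.5. Its share was 7.76% ± 0.697 and 6.57% ± 0.823 at P7, and 2.26% ± 0.116 and 1.37% ± 0.266 in the adult. Acta1 made up 2.15% ± 0.551 and 1.6% ± 0.193 at E18.5, 3.17% ± 0.778 and 3.63% ± 0.794 at P7, and 7.34% ± 0.863 and 6.88% ± 0.61 in the adult, in the same order of classes. These shares are ratios within a library and do not move with its scaling. Adult libraries thus had Acta1 above Acta2, and the younger ones the reverse.

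The ratio of Acta2 to Acta1 per kilobase traced this exchange. It was 5.87, 4.74 and 7.35 in mononucleated and 7.39, 6.38 and 8.3 in binucleated libraries at E18.5. At P7 the ratio was 2.42, 1.83 and 3.5 in mononucleated and 1.71, 1.35 and 2.66 in binucleated libraries. Adult ratios were 0.269, 0.302 and 0.363 in mononucleated and 0.152, 0.266 and 0.19 in binucleated libraries. The order of the 2 isoforms was therefore reversed between P7 and the adult in every library, and the ages did not overlap. Actc1 made up 84.5% to 87% of the 3 genes at E18.5 and 89.5% to 92.1% in the adult. Exon sequences of these genes are alike in part, yet Actc1 shared no stretch of 50 bases with any of the other measured actins. Acta1 shared 28 of 1534 such stretches (1.83%) with Actb and 10 with Actg1, and Acta2 shared 7 with Actg1. Only exact stretches among the measured actins, transgelins and calponins were searched, and how the authors' counting placed shared reads is not known.

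**Figure D2:**
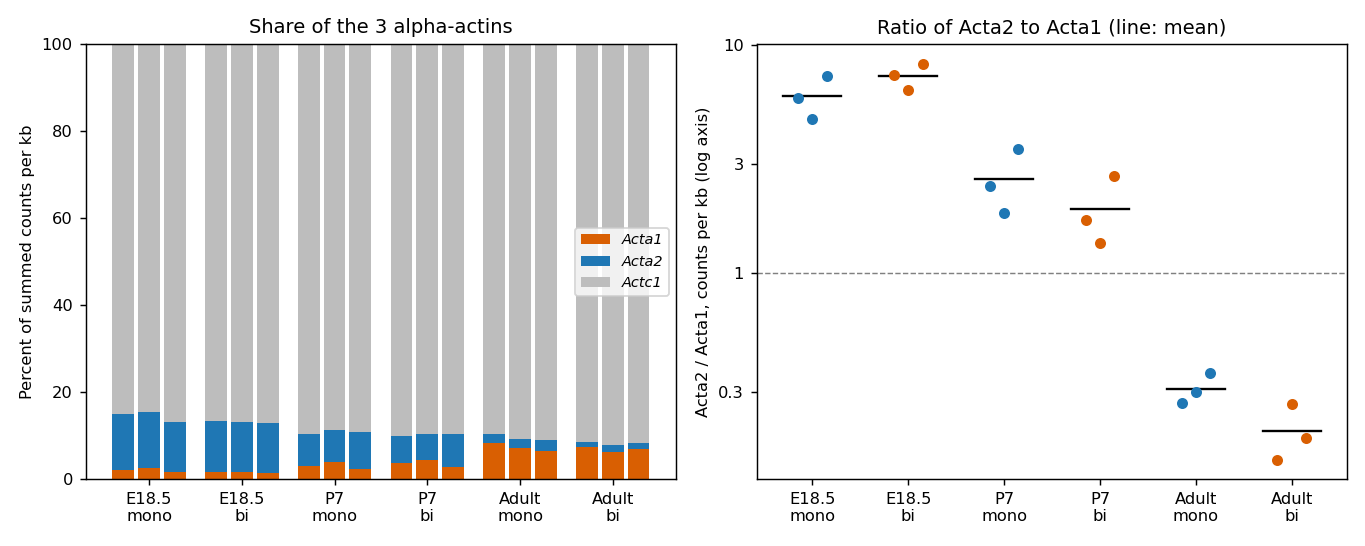
Left, the percent of the summed counts per kilobase of Actc1, Acta1 and Acta2 in each of the 18 libraries; right, the ratio of Acta2 to Acta1 per kilobase on a log axis, with 1 point per library and a line at the mean of 3. The mean ratio drops from 5.99 and 7.36 at E18.5 through 2.58 and 1.91 at P7 to 0.311 and 0.202 in the adult, in mononucleated and binucleated cells.

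Tagln, transgelin or SM22 alpha (ENSMUSG00000032085), was rare throughout, and its recovered counts set how firmly it can be read. They were 70, 42 and 31 in mononucleated and 72, 105 and 82 in binucleated libraries at E18.5. At P7 they were 85, 38 and 73 in mononucleated and 41, 8 and 25 in binucleated libraries. Adult libraries held 24, 14 and 9 in mononucleated and 22, 13 and 28 in binucleated cells. The normalized group means were 38.4 ± 16.6 and 76.2 ± 13.6 (SD, n = 3) at E18.5, 62.2 ± 25 and 25.5 ± 15.2 at P7, and 18.2 ± 7.37 and 24.2 ± 7.16 in the adult, mononucleated first. Neighbours in the order of the groups overlapped at each place.

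The Tagln fall passed the test in binucleated cells from E18.5 to P7, by 3.38-fold (−1.76 ± 0.52 SE on the log2 scale, limma adjusted p = 0.0153), and from E18.5 to the adult, by 3.16-fold (−1.66 ± 0.52, limma adjusted p = 0.0121). In mononucleated cells it passed from P7 to the adult, by 3.31-fold (limma adjusted p = 0.0136), and not from E18.5 to the adult at −1.05 (limma adjusted p = 0.1, or 0.0259 when scaled to library totals). In binucleated cells 9 of 9 measured fibroblast markers (median −5.44 on the log2 scale), 10 of 10 endothelial markers (−2.90), 5 of 5 leukocyte markers (−3.49) and 4 of 4 epicardial markers (−6.71) were lower at P7 than at E18.5 too, where 36% of all genes passed. From E18.5 to the adult in these cells, 8 fibroblast, 4 epicardial, 1 endothelial and 0 leukocyte markers were lower and 0 higher (57.7% of all genes passed). From P7 to the adult in mononucleated cells, 9 endothelial, 5 leukocyte, 3 fibroblast and 1 epicardial markers were higher and 1 fibroblast marker lower (41.4%). The part of these markers in the Tagln values was not tested. All 3 Tagln calls were lost under quantile normalization, with limma adjusted p = 0.0607, 0.206 and 0.12 in that order. The first and the second were lost too without 1 binucleated library, replicate 2 of P7 (limma adjusted p = 0.0859) or of the adult (0.053). The mononucleated call was lost without P7 replicate 1 (0.0508), P7 replicate 3 (0.0631) or adult replicate 3 (0.0688). The direction of the class difference in the means changed between ages, at log2 values of 1.05 ± 0.52 at E18.5 and −1.39 ± 0.52 at P7, but neither passed (limma adjusted p = 0.375 and 0.281) and nor did the change between them (−2.44 ± 0.74, interaction, limma adjusted p = 0.109).

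Tagln2, the transgelin of many non-muscle cells (ENSMUSG00000026547), was the member on which the nuclear classes differed. Its normalized counts at E18.5 were 181, 295 and 274 in mononucleated and 927, 755 and 666 in binucleated cells. P7 libraries held 116, 103 and 133 in mononucleated and 51.4, 48.9 and 54.1 in binucleated cells. Adult libraries held 81.2, 165 and 101 in mononucleated and 108, 124 and 96 in binucleated cells. The classes did not overlap at E18.5, where binucleated cells were higher, nor at P7, where they were lower, and they overlapped in the adult. The binucleated group at E18.5 was the highest of the 6 groups and the binucleated group at P7 the lowest.

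Tagln2 was 3.17-fold higher in binucleated cells at E18.5 (1.66 ± 0.26 SE on the log2 scale, limma adjusted p = 0.00371). It was 2.25-fold lower in them at P7 (−1.17 ± 0.26, limma adjusted p = 0.0233). In the adult the difference was −0.02, with an interval of −0.58 to 0.53. The E18.5 call was lost only in a fit of those 2 groups alone (limma adjusted p = 0.172), in which 0 of all genes passed. The P7 call was lost without any 1 of the 6 P7 libraries (limma adjusted p = 0.0521 to 0.13) and under quantile normalization (0.133). The change of the class difference from E18.5 to P7 was itself past the threshold, at −2.84 ± 0.37 (interaction, limma adjusted p = 0.000947), and stayed so in each of the 30 alternatives, with values of −2.97 to −2.54.

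Within the classes, Tagln2 fell 14.9-fold from E18.5 to P7 in binucleated (limma adjusted p = 2.09e-08) and 2.09-fold in mononucleated cells (limma adjusted p = 0.00848). From P7 to the adult it rose 2.1-fold in binucleated cells (1.07 ± 0.26 SE on the log2 scale, limma adjusted p = 0.00374), while the value in mononucleated cells was −0.08 (limma adjusted p = 0.843). Adult levels were 7.1-fold below E18.5 in binucleated (limma adjusted p = 1.14e-07) and 2.2-fold below it in mononucleated cells (limma adjusted p = 0.0015). The recovered counts behind these values were 220 to 1000 per library at E18.5, 41 to 139 at P7 and 77 to 124 in the adult.

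Marker sums of fibroblasts, endothelium, leukocytes and epicardium were, like Tagln2, higher in the binucleated libraries at E18.5. Summed normalized counts of fibroblast markers (9 of 10 measured) were 969 to 1919 per mononucleated and 6371 to 17618 per binucleated library. The 10 endothelial markers summed to 291 to 630 against 1100 to 2379. Leukocyte markers (5 of 7 measured) summed to 0 to 15.4 against 85.6 to 198, with Laptm5, C1qb and C1qc at 0 in the mononucleated group, and epicardial markers (4 of 5 measured) to 91.1 to 180 against 455 to 490. At P7 the ranges overlapped or lay close, with 404 to 950 against 373 to 610 for fibroblast and 191 to 441 against 205 to 225 for endothelial markers. In the adult, with Tagln2 at 81.2 to 165, endothelial markers summed to 1487 to 2120 per library and leukocyte markers to 85 to 139. Fibroblast markers summed to 494 to 982 there and epicardial markers to 4.22 to 93, both below the binucleated libraries of E18.5. The part of these markers in the Tagln2 values was not tested.

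**Figure D3:**
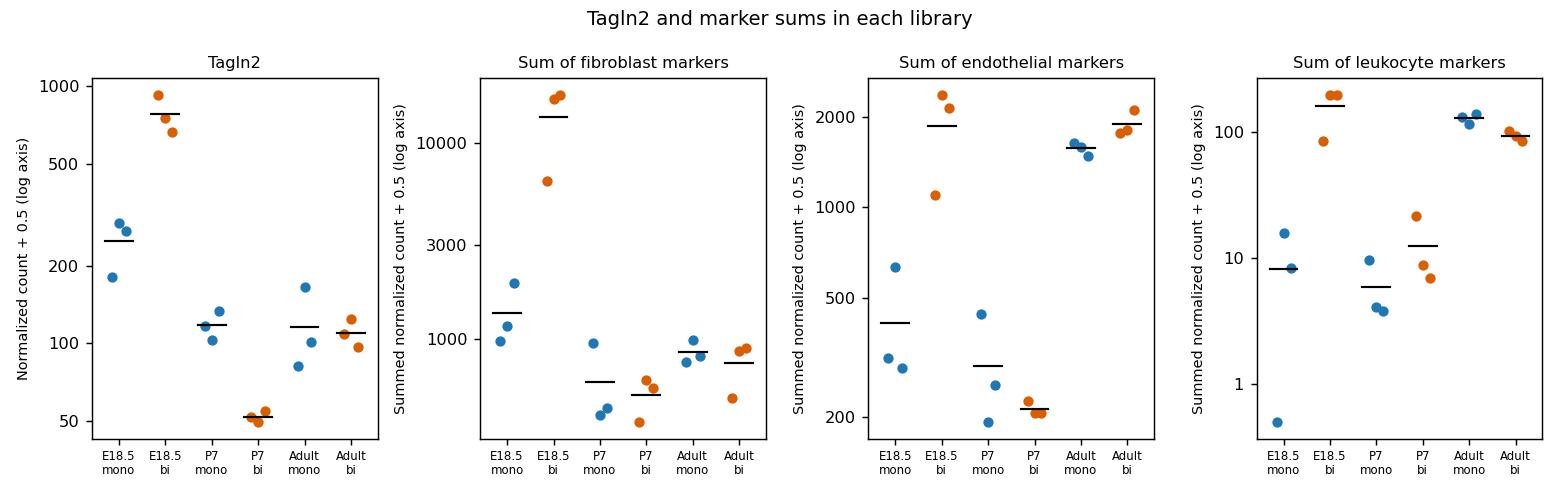
Normalized count of Tagln2 and summed normalized counts of fibroblast, endothelial and leukocyte markers, each plus 0.5 on a log axis, in each of the 18 libraries, with mononucleated groups in blue, binucleated groups in orange and lines at the means of 3. All 4 quantities are higher in the binucleated than in the mononucleated libraries at E18.5, and Tagln2 alone separates the classes in the other direction at P7.

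Cnn1, calponin 1 (ENSMUSG00000001349), was well expressed at E18.5 and nearly absent from the adult libraries. Its recovered counts at E18.5 were 1714, 1833 and 1144 in mononucleated and 1154, 1494 and 1298 in binucleated libraries. P7 libraries held 284, 301 and 363 in mononucleated and 69, 78 and 76 in binucleated cells. Adult libraries held 0, 0 and 1 in mononucleated and 6, 0 and 3 in binucleated cells. The ages did not overlap in either class. A library at 0 allows up to 3 counts, and this limit covers counting error only.

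From E18.5 to P7, Cnn1 fell 4.17-fold in mononucleated (−2.06 ± 0.65 SE on the log2 scale, limma adjusted p = 0.0353) and 14.4-fold in binucleated cells (−3.84 ± 0.65, limma adjusted p = 0.000266). The mononucleated call was lost without any 1 of the 6 libraries of that contrast (limma adjusted p = 0.0525 to 0.112). All later contrasts of age passed, with limma adjusted p = 3.85e-08 and 1.66e-05 from P7 to the adult in mononucleated and binucleated cells. Fitted folds against groups with so few counts depend on the offset of 0.5, so ratios of summed counts are given with exact 95% counting intervals. Mononucleated cells held 948 counts at P7 and 1 in the adult, a ratio of 753 at equal library size (135 to 29792). Binucleated cells held 223 and 9 counts, a ratio of 22.8 (11.8 to 50.5). Against E18.5 the adult ratios were 3206 (575 to 126670) and 324 (170 to 708).

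At P7 the binucleated cells held less Cnn1 than the mononucleated ones. Normalized counts were 237, 270 and 406 in mononucleated and 66.9, 93 and 82.3 in binucleated cells, a difference of 3.68-fold with no overlap (log2 fold change −1.88 ± 0.65 SE). In the fit of all 18 libraries this did not pass (limma adjusted p = 0.205). It passed in the fit of the P7 groups alone (limma adjusted p = 0.00261, where 5.05% of all genes passed), with voom weights (0.00109), with an offset of 2 (0.00996), with array weights (0.0365) and without adult binucleated replicate 2 (0.0228). The all-library fit shares 1 spread per gene over the 6 groups, adult libraries with 0 to 6 counts included. At E18.5 the class difference was −0.09 ± 0.65. In the adult, 9 counts against 1 gave a ratio of 8.94 with a counting interval of 1.24 to 392, and the limma adjusted p was 1, or 0.0424 without adult binucleated replicate 2. The class difference changed by −1.79 ± 0.92 from E18.5 to P7 (interaction, limma adjusted p = 0.389, or 0.0116 with voom weights and 0.017 in the fit of those groups alone). From P7 to the adult it changed by 3.51 ± 0.92 (limma adjusted p = 0.165, or 0.0375 with an offset of 2 and 0.0246 without adult binucleated replicate 2).

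Counted together, fewer members passed by nuclear class than by age. At E18.5, 1 of 6 passed between classes (Tagln2), where 0.805% of all 12048 genes passed, and at P7 1 of 6 (Tagln2 again), where 2.12% did. In the adult limma called 0 of 6, where 0.0913% of all genes passed. There Acta2 and Cnn1 were the members with an unadjusted p under 0.05, as had 301 of all 12048 genes, and voom weights called 0 of 6 and array weights 1. Groups that did not overlap were found for Tagln and Tagln2 at E18.5 (14% of all genes did so there), Tagln2 and Cnn1 at P7 (24.5%) and Acta2 in the adult (6.25%). The change of the class difference passed for 1 of 6 from E18.5 to P7 (2.33% of all genes) and for 0 of 6 from P7 to the adult (0.208%). In the latter, at an unadjusted p under 0.05 there were 4 members and 568 of all 12048 genes, and voom weights called 0 of 6.

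With age, 3 of 6 passed from E18.5 to P7 in mononucleated cells, all lower, where 2231 of 12048 genes passed in either direction and 7.84% passed and were lower. In binucleated cells 5 of 6 passed, 1 higher and 4 lower, where 36% did. From P7 to the adult 4 of 6 passed in each class, 1 higher and 3 lower in mononucleated cells (41.4% of all genes) and 2 higher and 2 lower in binucleated cells (37%). From E18.5 to the adult 4 of 6 passed in mononucleated cells, 1 higher and 3 lower (53.8% of all genes), and 5 of 6 in binucleated cells, 1 higher and 4 lower (57.7%). The median log2 fold change of the 6 members in these last 2 contrasts was −1.09 and −2.24, beside −0.01 and −0.02 over all genes. Contrasts of age share groups of libraries with each other and are not independent.

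Leaving out binucleated replicate 1 of E18.5, the library that stood apart, kept every call of the other 5 members that used its group. From E18.5 to the adult in binucleated cells the log2 fold changes were then 2.44 for Acta1, −2.77 for Acta2, −1.54 for Tagln, −2.70 for Tagln2 and −8.64 for Cnn1 (limma adjusted p = 0.0311 for Tagln and 4.94e-07 or less for the rest). From E18.5 to P7 they were 1.43, −0.56, −1.65, −3.77 and −3.70 in the same order of genes, with a largest limma adjusted p of 0.0342. The class difference of Tagln2 at E18.5 was 1.54 (limma adjusted p = 0.0124) and its change to P7 was −2.71 (0.00101).

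**Figure D4:**
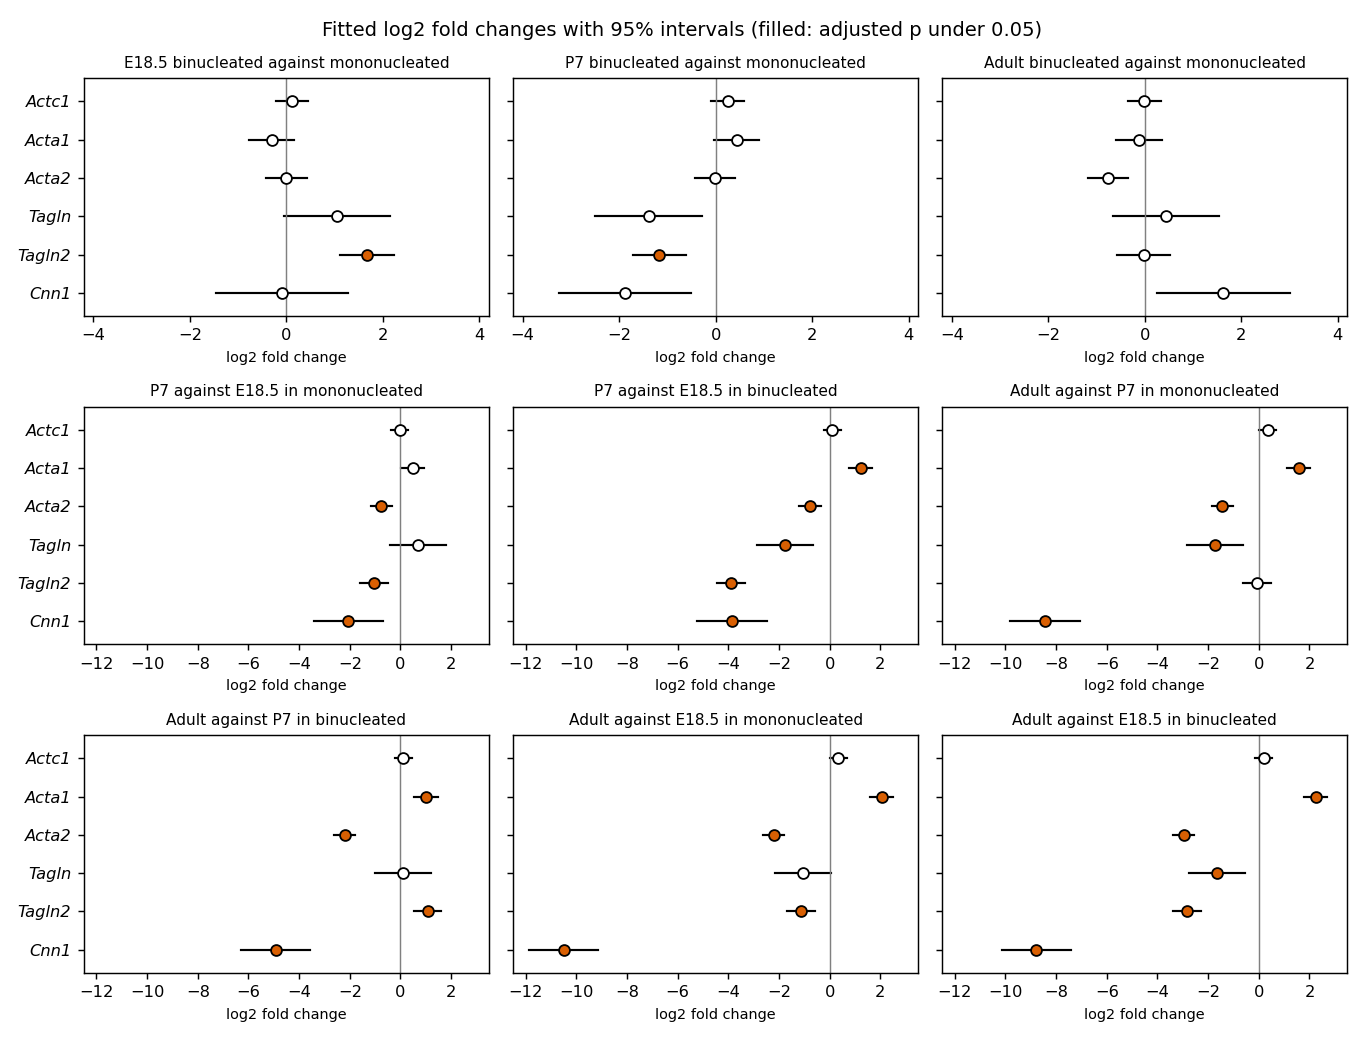
Fitted log2 fold changes of the 6 genes with 95% intervals in the 3 contrasts of nuclear class and the 6 contrasts of age, filled where the limma adjusted p was under 0.05; the age panels have a wider axis than the class panels. Only Tagln2 is filled between classes, at 1.66 for E18.5 and −1.17 for P7, while Acta2 and Cnn1 are filled on the lower side in every contrast of age.

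The cytoplasmic actins, which build the cytoskeleton of every cell, followed another course. Actb had normalized counts of 2094 ± 43.4 (SD, n = 3) in mononucleated and 3367 ± 181 in binucleated cells at E18.5, a difference of 1.61-fold (0.68 ± 0.14 SE on the log2 scale, limma adjusted p = 0.031). The markers of fibroblasts, endothelium and leukocytes given beside Tagln and Tagln2 were likewise higher in these binucleated libraries than in the mononucleated ones. Within binucleated cells these markers were lower at P7 than at E18.5, and their part in the Actb values was not tested. Actb fell 1.85-fold from E18.5 to P7 in binucleated cells (limma adjusted p = 0.0002) and rose 1.96-fold and 2.17-fold from P7 to the adult in mononucleated and binucleated cells (limma adjusted p = 4.78e-05 and 1.45e-05). Actg1 rose 1.6-fold and 1.46-fold in that last step (limma adjusted p = 0.00279 and 0.0123), a call that was lost under scaling to library totals (0.0705 and 0.114). Adult Actg1 was 1.62-fold and 1.52-fold above E18.5 (limma adjusted p = 0.00152 and 0.00412), again lost under that scaling (0.111 and 0.31), with its sign kept. The gene of the enteric smooth muscle actin, Actg2, was not among the measured genes. Per kilobase, Actb stood at 611 to 1487 and Actg1 at 1081 to 1873 normalized counts over the group means, beside 1303 to 10295 for Acta2.

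The paralogs of the calponin family were lower in the adult than at E18.5 as Cnn1 was, though at a higher floor. Cnn2, the calponin of non-muscle and smooth muscle cells, had means of 3620 ± 318 and 3407 ± 398 normalized counts (SD, n = 3) at E18.5 and 1081 ± 142 and 989 ± 113 in the adult. It fell 4.98-fold and 4.47-fold from E18.5 to P7 in mononucleated and binucleated cells (limma adjusted p = 4.21e-06 and 5.57e-06). Unlike Cnn1, its means were lower at P7, at 759 and 785, than in the adult, and that step did not pass. Cnn3, the acidic calponin, fell in both steps and was 7.15-fold and 7.98-fold lower in the adult than at E18.5 (limma adjusted p = 7.44e-10 and 3e-10). Between nuclear classes Cnn2 and Cnn3 had log2 fold changes of −0.15 to 0.08 at the 3 ages and none passed. Of the 5 measured transgelins and calponins, 5 were lower in adult than in E18.5 binucleated cells and 4 in mononucleated cells, the exception being Tagln. Over all genes 57.7% and 53.8% passed in these contrasts, in either direction. Tagln3 was not among the measured genes.

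**Figure D5:**
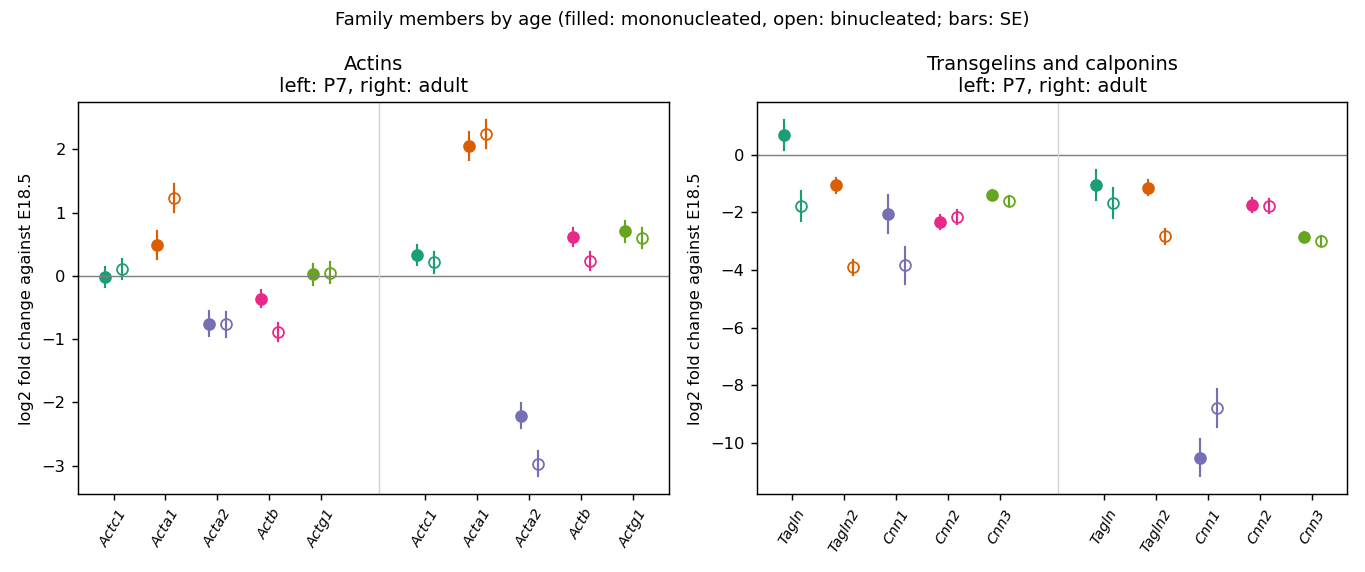
Log2 fold change against E18.5 of the measured actins (left) and of the transgelins and calponins (right), at P7 and in the adult, with filled points for mononucleated and open points for binucleated cells and bars of 1 SE. Acta1 is the actin with the highest adult values, 2.05 and 2.24, and Acta2 the one with the lowest, −2.21 and −2.97; the adult values of Cnn1 rest on 1 and 9 counts and depend on the offset.

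Few of the genes for Srf and its cofactors passed the test. Srf, the CArG box binding factor, had group means of 1033 to 1730 normalized counts and passed 1 contrast of age, 1.67-fold higher in adult than in P7 mononucleated cells (limma adjusted p = 0.00682, and 0.0697 when scaled to library totals). Myocd passed none, with means of 2626 to 3520 normalized counts and −0.46 ± 0.24 and −0.07 ± 0.24 for adult against E18.5. Its normalized counts in binucleated cells at E18.5 were 1788, 3463 and 3471, the first from the library that stood apart, so the second value leans on that library. Mrtfb passed none either, at 0.46 ± 0.21 and 0.37 ± 0.21. Mrtfa was 1.94-fold lower in adult than in E18.5 mononucleated cells (limma adjusted p = 0.0082), a call that quantile normalization removed (0.203), on 354 and 129 recovered counts. Of the 10 genes of this list 1 was higher and 2 lower in the adult in mononucleated cells, and 1 and 1 in binucleated cells, where 53.8% and 57.7% of all genes passed in either direction. The gene that was higher was Fhl2, a LIM-domain cofactor of heart muscle, at 2.51-fold and 2.42-fold (limma adjusted p = 7.28e-07 and 9.64e-07). The homeobox factor Nkx2-5 was lower in both classes, 1.5-fold and 1.58-fold (limma adjusted p = 0.0159 and 0.00671). No gene of the list passed between nuclear classes at any age.

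Other smooth muscle contractile genes did not all follow Acta2 and Cnn1. Of 10 measured genes of 15 listed, 3 were higher and 4 lower in the adult than at E18.5, in both classes, beside 53.8% and 57.7% of all genes that passed in mononucleated and binucleated cells. The lower ones were Myl9, a regulatory myosin light chain of smooth and non-muscle cells (19.7-fold and 31.7-fold in mononucleated and binucleated cells), Csrp1, a LIM protein (26-fold and 23.2-fold), Tpm2, beta-tropomyosin (18.9-fold in each class), and Cald1, caldesmon (6.87-fold and 8.76-fold). The higher ones included Smtn, smoothelin (3.05-fold and 2.91-fold), and Synpo2, a Z-disc protein of muscle (3.85-fold and 7.62-fold). Limma adjusted p was 2.95e-05 or less for each gene named here. Synpo2 is made in heart muscle too. Its normalized counts in binucleated cells at E18.5 were 438, 1267 and 1323, the first from the library that stood apart, so its binucleated fold leans on that library. The median log2 fold change of the list was −0.13 and −0.10, beside −0.01 and −0.02 over all genes. Myh11, the smooth muscle myosin heavy chain and its most specific marker, was listed but was not among the measured genes.

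Genes that turn over cytoskeletal actin filaments fell with age more uniformly. Of 25 measured genes, 2 were higher and 21 lower in adult than in E18.5 mononucleated cells, and 2 and 20 in binucleated cells, with medians of −1.90 and −1.91, where 53.8% and 57.7% of all genes passed. They included Tmsb10, a thymosin that holds actin monomers (34-fold and 54.5-fold lower), Gsn, the filament-severing protein gelsolin (9.13-fold and 9.09-fold), and the Arp2/3 subunits Arpc1b (7.4-fold and 7.76-fold) and Arpc5 (3.91-fold and 4.26-fold), each with limma adjusted p of 1.16e-08 or less. The 2 higher genes, named after their values were seen, were the profilin Pfn2 (2.57-fold and 2.47-fold) and the light chain Myl12a (2.71-fold and 2.26-fold). Tpm4, a cytoskeletal tropomyosin, had the smallest adjusted p of the list between classes at E18.5 and at P7, at 0.74 ± 0.22 (limma adjusted p = 0.175) and −0.88 ± 0.22 (0.0526), the same 2 directions as Tagln2.

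Genes that assemble the sarcomeric thin filament went the other way for a few members. Of 13 measured genes, 5 were higher and 1 lower in the adult than at E18.5 in mononucleated cells, and 6 and 0 in binucleated cells, where 53.8% and 57.7% of all genes passed. These counts were 3 and 3, and 3 and 2, when scaled to library totals. Xirp2, an actin-binding protein of the intercalated disc, was 45.7-fold and 85.4-fold higher (limma adjusted p = 8.3e-10 and 1.09e-10), and Tmod4, a cap of the filament's pointed end, 33.1-fold and 99.8-fold (7.37e-08 and 2.26e-09). Lmod2, a leiomodin that lengthens thin filaments, was 5.79-fold and 4.64-fold higher (5.51e-08 and 2.29e-07). The other higher genes were Lmod3 in both classes, Cfl2 in mononucleated cells and Tmod1 and Xirp1 in binucleated cells, between 1.3-fold and 2.36-fold, and the lower gene was Cap2 in mononucleated cells (1.36-fold); all but Lmod3 were named after their values were seen. No gene of this list or of the 2 lists before it passed between nuclear classes at any age.

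Across the 18 libraries the members' log2 values formed a group of opposite courses. As a description over libraries that share groups, Pearson's r was −0.90 between Acta1 and Acta2, −0.93 between Acta1 and Cnn1, and 0.90 between Acta2 and Cnn1. Tagln2 was less like them, at 0.50 with Acta2 and 0.52 with Cnn1. The 3 genes most like each member over the 18 libraries were, for Acta2, Renbp, Pcolce and Plagl1 (r = 0.984, 0.981 and 0.981), and for Cnn1, Ubash3b, Arfip1 and Serp1 (0.987, 0.982 and 0.978). For Acta1 they were Tmem150a, Lrg1 and Cst6 (0.973, 0.969 and 0.969), and for Actc1, Slc25a3, the mitochondrial phosphate carrier, Pgam2, a muscle glycolytic enzyme, and Cyc1, cytochrome c1 (0.948, 0.943 and 0.934). Tagln2 was most like Fabp5, Snrnp48 and S100a10 (0.963, 0.941 and 0.936). Tagln, with its few counts, reached 0.830 with Mgp, 0.830 with Fbxl15 and 0.825 with Itgb8.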

How the data were processed

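RNA was extracted from sorted cardiomyocytes, and libraries were made with Illumina TruSeq stranded mRNA and Clontech SMARTer amplification kits, per the labels' protocols. Per the submitters' processing notes STAR, limma and genome build mm9 were used; the sources used here give no versions, read counter, annotation or filters. What the authors deposited were log2 values in a table for each library. Each value equalled log2 of a whole count plus 0.5 times 1 factor per library, and all recovered counts lay within 9.6e-09 of whole numbers (tolerance 0.001). Amplified libraries carry no molecular identifiers, so intervals and limits on counts cover counting error only.

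limma 3.58.1 (R 4.3.3) was fitted to the deposited log2 values of all 18 libraries with 6 group means (12 residual degrees of freedom), empirical Bayes moderation and an intensity trend. Tests were two-sided, and p-values carry the Benjamini-Hochberg adjustment over all 12048 genes in each of 11 contrasts, with a threshold of 0.05. The fit was checked on simulated data. Symbols came from GENCODE M21 (11927 of 12048 matched); lengths are exon unions from it, and promoters are from RefSeq. Exact intervals used SciPy 1.17.1. The members, gene lists and tests were chosen with earlier results of these data known. The actins, calponins and main Srf cofactors were named whatever their values; from the lists other than markers, named genes were taken from those with the smallest adjusted p in adult against E18.5 or between classes, though not all of these are printed. Markers were named where a result needed them. Markers for cardiomyocyte, smooth muscle and pericyte, fibroblast, endothelial, leukocyte and epicardial cells were summed. The values of 1 listed gene are not reported here.

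Replicate numbers are shared between classes. Deviations from group means of same-numbered libraries correlated at 0.18, 0.19 and 0.24 at P7 and 0.26, 0.26 and 0.33 in the adult. At E18.5 they correlated at 0.09, 0.05 and 0.16, against −0.09 to 0.00 for libraries with different numbers, so pairing there is not settled. The main fit held no block for these pairs at any age, so its class contrasts and interactions leave pairing out. Blocks for the pairs were fitted only as alternatives. The labels do not say that replicates are separate animals, and a p-value then reflects only the spread of these samples, which may be technical. Alternatives were quantile normalization, scaling to library totals, an offset of 2, voom weights, array weights, a fit of the contrast's groups alone, replicate blocks, and leaving out each library. A filter of 10 counts in 3 libraries removed 0 genes and says nothing on stability.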

Additional observations from a re-analysis of the deposited data

Results flagged for a closer look

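The effect of nuclear class on Tagln2 differed between ages. Binucleated cells held more of it than mononucleated cells at E18.5 (log2 fold change 1.66 ± 0.26 SE) and less at P7 (−1.17 ± 0.26), and the test of the change itself gave −2.84 ± 0.37 (interaction, n = 3 per group, limma adjusted p = 0.000947). All 3 binucleated libraries lay above all 3 mononucleated ones at E18.5 and below them at P7. Fibroblast, endothelial, leukocyte and epicardial marker sums were higher in the binucleated libraries at E18.5, and their part in the difference was not tested.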

How the results depend on the processing

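Over 66 results (6 genes in 11 contrasts) and 1908 alternative values, 1859 kept the direction and the side of the threshold, 25 kept the direction but lost the call, 24 gained one and 0 called values reversed; among the first, 58 uncalled values had the other sign. The count of members past the threshold moved by over 1.5 times, or to or from 0, as follows. Between classes at E18.5 it went from 1 to 0 in the fit of those groups alone. Between classes at P7 it went from 1 to 0 under quantile normalization and to 2 with an offset of 2, voom weights, array weights or the fit of the P7 groups alone, and ranged from 0 to 2 when libraries were left out. Between classes in the adult it went from 0 to 1 with array weights and ranged from 0 to 1 without 1 library. From E18.5 to P7 it ranged from 1 to 3 without 1 library in mononucleated cells, where it was 3, and fell from 5 to 3 in the fit of the binucleated groups alone. For the change of the class difference it rose from 1 to 2 with voom weights and in the fit of its own groups (E18.5 to P7), and from 0 to 1 with an offset of 2 (P7 to the adult), with a range of 0 to 1 without 1 library. Smaller moves in the contrasts of age, left-out libraries included, took the other counts to 3 to 5 (adult against P7, mononucleated, 4 before), 4 to 6 (adult against E18.5, mononucleated 4 and binucleated 5 before) and, from E18.5 to P7, 4 in mononucleated and 4 to 6 in binucleated cells. Except where a fit held fewer samples, the cause was not tested. The replicate block changed no call of a member. Over all genes, blocking the P7 and the adult pairs, a setting chosen after seeing the data, moved the counts from 97 to 65 (E18.5 classes), 256 to 229 (P7), 11 to 14 (adult), 281 to 204 and 25 to 8 (changes of the class difference, E18.5 to P7 and P7 to the adult). A block across ages gave 93, 241, 8, 244 and 15. Counts over all genes ranged over the other settings from 0 (contrast's groups alone) to 338 (array weights) for E18.5 classes, from 217 (quantile) to 1401 for P7 and from 0 (voom) to 52 for adult classes; array weights also gave 5177 from E18.5 to P7 in mononucleated cells (2231 before) and the fit of 2 groups 2069 in binucleated cells (4332 before). Without 1 library, counts over all genes ran from 79 (mononucleated E18.5 replicate 1) to 282 (binucleated E18.5 replicate 3) for E18.5 classes. Binucleated replicate 1 of E18.5 gave the highest of the rest when left out: the P7 classes ran from 129 (mononucleated P7 replicate 3) to 574, the adult classes from 2 (mononucleated adult replicate 2) to 23, the change of the class difference from 160 (mononucleated P7 replicate 3) to 568 (E18.5 to P7) and from 0 (binucleated P7 replicate 2) to 102 (P7 to the adult), and E18.5 to P7 in mononucleated cells from 1628 (mononucleated E18.5 replicate 2) to 3901. Scaling to library totals moved the median of all genes by −0.40 and −0.43 (adult against E18.5, mononucleated and binucleated), −0.32 and −0.25 (adult against P7) and −0.08 and −0.16 (P7 against E18.5). The share of higher among called genes went from 48.6% to 27.6% and 49.1% to 28.5%, from 46.1% to 24.5% and 46.8% to 29%, and from 57.6% to 47.1% and 50.7% to 30.9%, in the same order. Depth limits Tagln and adult Cnn1, at 8 to 105 and 0 to 6 counts per library.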
